A study of Mus musculus with 24 samples.

Results

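The genes described here are 10 members of the circadian clock and its output, *Arntl*, *Clock*, *Per1*, *Per2*, *Per3*, *Cry1*, *Nr1d1*, *Nr1d2*, *Dbp* and *Tef*, out of 54752 genes measured by RNA-seq in mouse bone marrow. They were taken by symbol: a row belonged to the set when its Ensembl ID mapped to one of these symbols in GENCODE M21. The symbols themselves were chosen with earlier results of these data known. All 10 were found, and the gene positions given below are on GRCm38. Expression was given as TPM, in which the length-corrected abundances of all transcripts of a library share a fixed total.

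The MHU-3 mission kept male mice on a C57BL/6 background in orbit for 31 days, and the bone marrow of each mouse gave a single library. The 4 groups of 6 mice were GC-WT and GC-KO, the wild-type and Nrf2-knockout ground controls, and FL-WT and FL-KO, the flight mice of these genotypes. Flight mice were aged 8 weeks when they were moved to the launch site, 3 weeks before launch, and the ground controls were kept in Japan in the same kind of single cages with the same food. Marrow cells came from the right pelvis and tibia, were frozen in CELLBANKER2 and were lysed directly for RNA. The knockout mice lack Nrf2, the transcription factor of the antioxidant response, and their exact allele is not given in the sources used here. The flight marrow was collected after return to Earth, and blood of the flight mice was measured on the US West Coast while that of the ground mice was measured in Japan. The hour of day at which marrow was taken is not given in the sources used here, so flight, place and clock time cannot be told apart in the flight comparisons.

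The molecular clock is a transcriptional feedback loop. The protein of *Arntl*, BMAL1, pairs with CLOCK and activates genes that carry an E-box, among them the period and cryptochrome genes, whose proteins return to the nucleus and repress BMAL1 and CLOCK. In a second loop, the nuclear receptors REV-ERBα and REV-ERBβ, encoded by *Nr1d1* and *Nr1d2*, repress *Arntl* through ROR elements, and the output factors DBP and TEF act on D-boxes. In bone marrow, clock timing is known for the daily rhythm of the release of hematopoietic stem cells and leukocytes into blood. *Per1* is in addition a direct target of the glucocorticoid receptor.

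Promoters of 4 members are shown because they hold the motifs by which the factors of the loop, or Nrf2, are known to act. Windows of 300 bases, from 250 before to 50 after an annotated start site, were available from RefSeq on GRCm38.p6 for 9 of the 10 members, and *Per2* had no entry. The sequences are written 5′ to 3′ on the strand of the gene, and capitals mark matches, on either strand, to the E-box CACGTG, the E′-box CACGTT, the D-box TTATGTAA, the ROR element or the core of the antioxidant response element, TGACNNNGC.

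Per1, chr11:69098699-69098998, plus strand: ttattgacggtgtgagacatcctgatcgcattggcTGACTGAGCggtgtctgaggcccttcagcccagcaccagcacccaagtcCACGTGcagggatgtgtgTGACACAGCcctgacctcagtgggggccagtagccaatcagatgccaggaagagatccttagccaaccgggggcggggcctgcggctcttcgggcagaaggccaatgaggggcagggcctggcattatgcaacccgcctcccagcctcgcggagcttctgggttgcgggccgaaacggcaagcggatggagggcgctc

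Cry1, chr10:85185005-85185304, minus strand: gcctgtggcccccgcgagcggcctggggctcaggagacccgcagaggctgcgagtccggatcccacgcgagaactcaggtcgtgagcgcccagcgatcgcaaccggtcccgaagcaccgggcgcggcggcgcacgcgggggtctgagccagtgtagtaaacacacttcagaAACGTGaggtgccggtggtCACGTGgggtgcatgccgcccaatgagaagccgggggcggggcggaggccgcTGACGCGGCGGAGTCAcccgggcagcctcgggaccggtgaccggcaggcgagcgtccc

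Per3, chr4:151044616-151044915, minus strand: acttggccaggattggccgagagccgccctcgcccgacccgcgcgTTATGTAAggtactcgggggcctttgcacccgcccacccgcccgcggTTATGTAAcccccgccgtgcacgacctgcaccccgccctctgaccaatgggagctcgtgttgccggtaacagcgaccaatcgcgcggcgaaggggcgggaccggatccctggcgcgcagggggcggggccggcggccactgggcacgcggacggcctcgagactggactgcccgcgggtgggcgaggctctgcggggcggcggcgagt

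Arntl, chr7:113207261-113207560, plus strand: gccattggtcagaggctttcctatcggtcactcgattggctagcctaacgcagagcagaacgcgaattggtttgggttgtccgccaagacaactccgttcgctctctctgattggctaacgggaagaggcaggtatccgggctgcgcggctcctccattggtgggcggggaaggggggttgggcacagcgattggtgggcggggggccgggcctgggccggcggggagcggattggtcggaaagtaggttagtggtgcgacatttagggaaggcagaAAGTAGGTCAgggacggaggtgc

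The E-box was found in 3 of the 9 members with a promoter, *Per1*, *Cry1* and *Tef*, against 7.15% of 32851 mouse promoters of this length. For this and the other motifs, a member counted when any of its 1 to 3 windows matched. The shares are per single window, so the units differ. In *Per1* it lay between positions -166 and -161 from the start site, and in *Cry1* between -60 and -55. The E′-box stood in *Cry1* and *Nr1d1*, and in 4.68% of all promoters. *Per3* carried the D-box TTATGTAA at -205 and again at -158, a motif in 0.938% of promoters, and the other D-box searched, TTACGTAA, was in 0 members and 0.119% of promoters. *Arntl* held a ROR element at positions 28 to 37 of the second of its 2 windows, as did 0.606% of promoters.

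The antioxidant response element core, the kind of site through which Nrf2 acts, matched at -215 and -148 in *Per1*, as an overlapping pair across the start site of *Cry1*, and at 38 in *Nr1d2*. It is short and matched 12.4% of all promoters. The full palindrome of the glucocorticoid response element matched in 0 of the 9 members and 0.475% of promoters, and the cyclic AMP response element TGACGTCA in 0 members and 1.79%. A match describes letters in this window only.

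The clock genes were expressed at low levels. Over all 24 libraries the median was 2.51 TPM for *Cry1*, 2.48 for *Per1*, 1.96 for *Arntl*, 1.24 for *Tef*, 1.02 for *Nr1d2*, 0.90 for *Clock*, 0.855 for *Per2*, 0.84 for *Dbp*, 0.635 for *Per3* and 0.105 for *Nr1d1*. Of the 12373 genes with a TPM above 1 in at least 1 library, the genes tested here, 40.2% had a lower median than *Cry1* and 8.4% a lower one than *Per3*. *Nr1d1* reached at most 0.36 TPM and was the 1 member left out of the tests. Neighbours in this order overlapped between mice in all 4 groups, with 3 exceptions: *Per3* and *Nr1d1* were apart in 4 groups, *Arntl* and *Tef* in 3 groups, all but FL-WT, and *Clock* and *Per2* in 1 group, FL-KO. TPM carries no read depth, so the counting error behind values near or below 1 TPM is unknown.

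**Figure D1:**
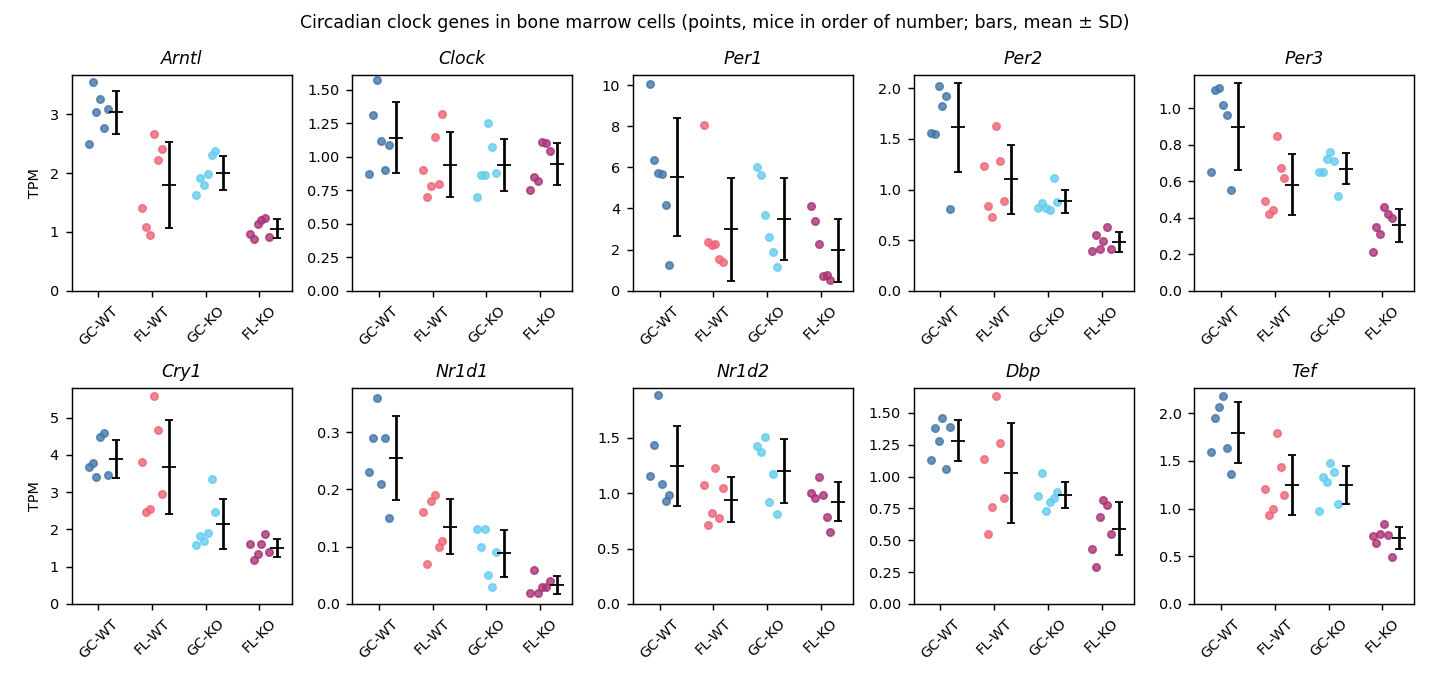
TPM (y axis, from 0, a scale per panel) of the 10 clock genes in the ground and flight mice of both genotypes; points are mice in order of their number and bars are the mean ± SD of 6 mice. On this unscaled TPM, FL-KO mice have the lowest mean for all members but *Clock*. The 4 groups overlap for *Clock*, *Per1* and *Nr1d2*, and *Per1* runs downwards with mouse number in each group. After median-of-ratios scaling the FL-KO means of *Clock* and *Nr1d2*, 1.243 and 1.244, are the highest of the 4 groups.

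The questions the groups allow are what flight changed in each genotype and what the loss of Nrf2 changed on the ground and in flight. They give a WT flight comparison (FL-WT minus GC-WT), a KO flight comparison (FL-KO minus GC-KO), a ground genotype comparison (GC-KO minus GC-WT) and a flight genotype comparison (FL-KO minus FL-WT). Each group enters a pair of them, so they are not independent.

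Some facts of the libraries bear on every value below. Nfe2l2, the gene of Nrf2, was at 11.39 to 27.26 TPM in wild-type and 2.22 to 7.18 TPM in Nrf2-knockout libraries, a value per gene that does not show which exons are left. The tissue matched its label: the summed share of 9 erythroid markers was 5.09 to 14.9% of TPM, and that of 8 neutrophil markers 2.99 to 6.57%. In contrast, 5 small RNAs such as 7SL and 7SK took 35.41 to 59.59% of TPM, and all other genes share what is left. The median log2 difference of all genes tested was not at 0: it was -0.24 in the WT flight comparison, -0.29 in the KO flight comparison, -0.22 in the ground genotype comparison and -0.25 in the flight genotype comparison. Changes are given relative to this shift, and also after median-of-ratios scaling, which sets the typical gene equal between libraries and brings these medians to between -0.01 and 0.04. In bulk marrow, fewer cells of a type and less RNA per cell cannot be told apart.

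Differences between groups were fitted with limma on log2(TPM + 1) across all 24 libraries, and a gene was called at a Benjamini-Hochberg adjusted p under 0.1 with a fold change of 2 or more in addition. Near 1 TPM, a difference on that scale understates the ratio of TPM. By this rule limma called 0 of the 9 tested clock genes in every comparison. A gene that averages under 1 TPM in the group subtracted cannot be called lower on this scale, whatever its change. This held for *Per3* in GC-WT mice (mean 0.898 TPM). It held for *Clock*, *Per2*, *Per3* and *Dbp* in GC-KO mice (0.937, 0.883, 0.668 and 0.853). In FL-WT mice it held for *Clock*, *Per3* and *Nr1d2* (0.942, 0.582 and 0.943). The same rule called 1% of all genes tested in the WT flight comparison, 2.13% in the KO flight comparison, 3.17% in the ground genotype comparison and 8.45% in the flight genotype comparison. At an unadjusted p under 0.05 the members numbered 4, 5, 5 and 6 in these comparisons, and each of them was lower, where 41.7, 52.2, 43.4 and 47.3% of all genes tested were lower at the same threshold. The calls over all genes were 116 lower and 8 higher, 264 and 0, 376 and 16, and 1034 and 12, and after scaling 16 and 19, 22 and 8, 62 and 35, and 381 and 27.

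Without the minimum fold change, an adjusted p under 0.1 was reached by 4 members in the WT flight comparison (*Arntl*, *Per2*, *Per3* and *Tef*), all lower, where 39% of all genes tested were lower by the same test. It was reached by 5 in the KO flight comparison (the same 4 and *Cry1*; 53.1% of all genes), 5 in the ground genotype comparison (*Arntl*, *Per2*, *Cry1*, *Dbp* and *Tef*; 42.9%) and 6 in the flight genotype comparison (those 5 and *Per3*; 47.2%). None was higher, as were 0.994, 0.299, 3.13 and 1.91% of all genes in the same order of comparisons. The members' shares are near those of all genes. After scaling, the list was shorter. Only *Arntl* was lower in the WT flight comparison, against 15.9% of all genes lower and 17.4% higher. *Arntl*, *Per2*, *Per3* and *Tef* were lower and *Clock* higher in the KO flight comparison, where 21.6% of genes were lower and 18.1% higher. *Arntl*, *Per2* and *Cry1* were lower in the ground genotype comparison, where 27.8% were lower and 29.8% higher. *Per2*, *Cry1* and *Tef* were lower and *Clock* higher in the flight genotype comparison, where 31.2% were lower and 35.2% higher.

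The median relative difference of the 9 tested members, against 0 for all genes by construction, was -0.02 in both flight comparisons, -0.09 in the ground genotype comparison and -0.15 in the flight genotype comparison on the log2 scale. After scaling it was -0.11 in the WT flight comparison, -0.17 in the KO flight comparison, -0.14 in the ground genotype comparison and -0.18 in the flight genotype comparison, with 7 of the 9 members lower in each. How far the members lay from the middle of all genes in flight thus depended on the scaling. The genotype medians depended on how TPM was adjusted: with the trend of GC content and length removed they were 0.12 on the ground and 0.23 in flight.

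**Figure D2:**
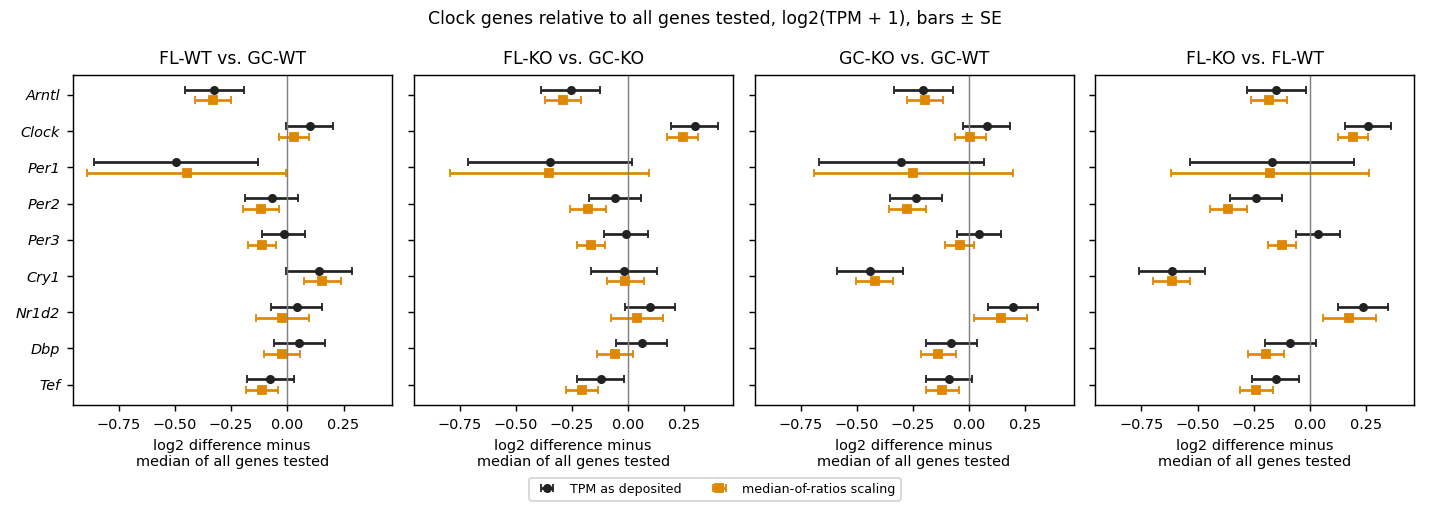
Difference in log2(TPM + 1) minus the median difference of all genes tested (x axis) for the 9 tested clock genes in the 4 comparisons, with bars of ± 1 SE of the limma fit; circles are TPM as deposited and squares are after median-of-ratios scaling. *Arntl* lies left of 0 in all 4 panels, *Cry1* left of 0 in the genotype panels at -0.44 and -0.61, and *Clock* right of 0 with FL-KO at 0.30 against GC-KO.

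*Arntl* (ENSMUSG00000055116.8, chr7:113207465-113314126, plus strand) encodes BMAL1, the activator without which the loop does not run. In GC-WT mice it ranged from 2.5 to 3.54 TPM with a median of 3.06, and in FL-WT mice from 0.95 to 2.66 with a median of 1.81. GC-KO mice had 1.63 to 2.37 TPM with a median of 1.96, and FL-KO mice 0.87 to 1.24 with a median of 1.05. On TPM as deposited every FL-KO mouse was below every GC-KO mouse and every GC-KO mouse below every GC-WT mouse. After scaling only the first of these held. FL-WT mice spread the most, with mice 3, 5 and 6 at 0.95 to 1.41 TPM and mice 7, 8 and 10 at 2.22 to 2.66 TPM. The typical gene was split the same way. The divisors of the median-of-ratios scaling were 0.737 to 0.992 for mice 3, 5 and 6 and 1.085 to 1.41 for mice 7, 8 and 10. The ratio of mean TPM was 0.591 in the WT flight comparison, 0.527 in the KO flight comparison, 0.661 in the ground genotype comparison and 0.59 in the flight genotype comparison.

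For *Arntl* the log2 difference was -0.57 ± 0.13 (SE; limma, Benjamini-Hochberg adjusted p = 0.00321) in the WT flight comparison and -0.54 ± 0.13 (adjusted p = 0.00266 by the same test) in the KO flight comparison. Scaling made these -0.33 ± 0.08 (limma, adjusted p = 0.00418) and -0.30 ± 0.08 (limma, adjusted p = 0.00648). The genotype differences were smaller, at -0.42 and -0.40 before and -0.17 and -0.14 after scaling, and the last did not pass, with a limma adjusted p of 0.134. The difference between the flight effects of the genotypes was 0.02 ± 0.19 on the log2 scale (limma, adjusted p = 1).

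The genes whose pattern over the 24 scaled libraries was most like *Arntl*, by the root mean square difference of standardized log2 values among the 5025 genes that averaged 5 TPM or more, were *Vpreb3* (0.447 SD units), *Xrcc6* (0.573) and *Serinc5* (0.573). *Vpreb3* is a marker of B cell progenitors. The summed TPM of 8 B progenitor markers had a median of 200 in GC-WT mice, 95.8 in FL-WT, 115 in GC-KO mice and 53.5 in FL-KO mice, with ranges of 161 to 224, 65.4 to 180, 89.9 to 140 and 45.1 to 74.3. None of the 8 was at 0 in all 24 libraries, and their part in the *Arntl* difference was not tested. These sums are TPM as deposited, whereas the patterns were compared on scaled values. In the same order of groups the medians were 166, 108, 152 and 73 for megakaryocyte markers. For stroma and bone markers they were 52.5, 35.4, 50 and 23.2. The sums of erythroid, neutrophil, promyelocyte, and T and NK markers did not have their lowest median in FL-KO mice.

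*Clock* (ENSMUSG00000029238.11, chr5:76209868-76304792, minus strand) encodes the partner of BMAL1. Its range was 0.87 to 1.57 TPM in GC-WT mice (median 1.1), 0.7 to 1.32 in FL-WT (median 0.85), 0.7 to 1.25 in GC-KO (median 0.87) and 0.75 to 1.11 in FL-KO mice (median 0.945). All 4 groups overlapped. On TPM as deposited the log2 difference was 0.01 ± 0.10 in both comparisons that involve FL-KO mice (limma, adjusted p = 0.951 and 0.967), where the median of all genes was lower by 0.29 and 0.25. After scaling *Clock* was higher by 0.23 ± 0.07 in the KO flight comparison (limma, Benjamini-Hochberg adjusted p = 0.0129) and by 0.24 ± 0.07 in the flight genotype comparison (limma, adjusted p = 0.00509). The interaction of flight and genotype for *Clock* was 0.20 ± 0.10 with an unadjusted p of 0.0479 and a limma adjusted p of 0.464, and it was the 1 member under an unadjusted 0.05 in that test.

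A ratio of 2 genes inside a library does not depend on how libraries are scaled. The log2 ratio of *Clock* to *Arntl*, picked for description after the values were seen, averaged -1.43 ± 0.24 (SD, n = 6) in GC-WT mice, -0.85 ± 0.43 in FL-WT, -1.11 ± 0.25 in GC-KO mice and -0.16 ± 0.23 in FL-KO mice. FL-KO mice ranged from -0.48 to 0.18 and GC-KO mice from -1.43 to -0.67, with no overlap. GC-WT mice ranged from -1.62 to -0.95 and overlapped FL-WT mice, at -1.47 to -0.28. By this ratio both activators were near the same level in FL-KO marrow, while *Arntl* was the higher in the other groups.

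**Figure D3:**
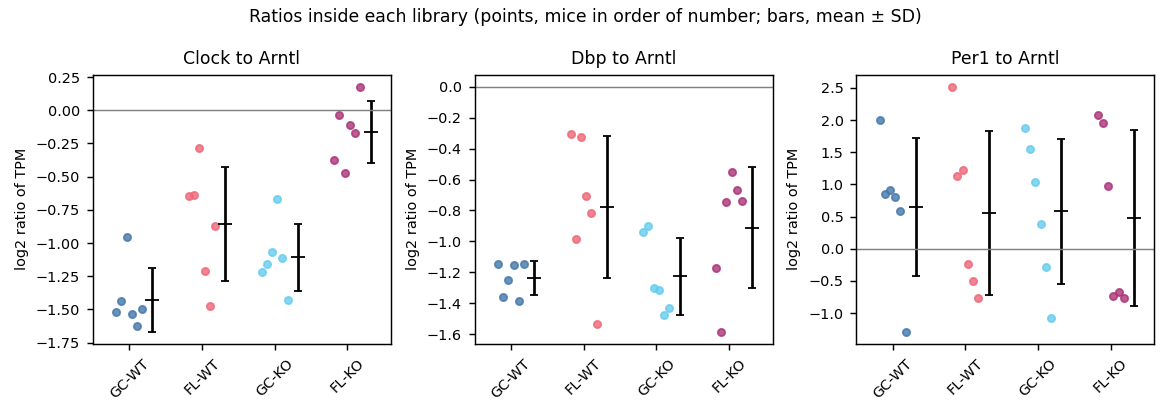
Log2 ratio of the TPM of *Clock*, *Dbp* and *Per1* to that of *Arntl* inside each library (y axis); points are mice in order of number, bars the mean ± SD of 6 mice. For *Clock* the FL-KO mice, at -0.48 to 0.18, lie above all GC-KO mice; for *Dbp* and *Per1* the flight and ground mice overlap.

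Among the repressors, *Cry1* (ENSMUSG00000020038.10, chr10:85131700-85185064, minus strand), a cryptochrome repressor of the loop, was lower in knockout mice on the ground and in flight. It ranged from 3.4 to 4.59 TPM in GC-WT (median 3.72) and from 1.57 to 3.36 in GC-KO mice (median 1.86). In flight it ranged from 2.47 to 5.58 TPM in FL-WT (median 3.38) and from 1.19 to 1.88 in FL-KO mice (median 1.5). On TPM as deposited, knockout and wild-type mice did not overlap on the ground or in flight, while flight and ground mice of a genotype did. After scaling the genotypes overlapped on the ground and not in flight.

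The log2 difference of *Cry1* was -0.66 ± 0.15 in the ground genotype comparison (limma, Benjamini-Hochberg adjusted p = 0.00116) and -0.86 ± 0.15 in the flight genotype comparison (limma, adjusted p = 3.1e-05), and after scaling -0.39 ± 0.08 (limma, adjusted p = 0.000829) and -0.57 ± 0.08 (limma, adjusted p = 6.91e-06). The ratio of mean TPM was 0.549 on the ground and 0.409 in flight. In the flight comparisons *Cry1* differed by -0.10 ± 0.15 in wild-type (limma, adjusted p = 0.595) and by -0.31 ± 0.15 in knockout mice (limma, adjusted p = 0.0887), and after scaling by 0.16 and -0.02. The interaction was -0.20 ± 0.21 (limma, adjusted p = 1).

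*Per2* (ENSMUSG00000055866.9, chr1:91415982-91459324, minus strand), a period repressor, was at 0.81 to 2.02 TPM in GC-WT mice (median 1.7), 0.73 to 1.63 in FL-WT (median 1.06), 0.8 to 1.11 in GC-KO (median 0.845) and 0.39 to 0.63 in FL-KO mice (median 0.45). The GC-WT range reached into the knockouts through mouse 10 alone, at 0.81 TPM, the other GC-WT mice being at 1.55 or above. On TPM as deposited FL-KO mice lay below every mouse of the other groups. The log2 difference between genotypes was -0.46 ± 0.12 on the ground (limma, adjusted p = 0.0033) and -0.49 ± 0.12 in flight (limma, adjusted p = 0.00113), and after scaling -0.25 and -0.32 (limma, adjusted p = 0.0157 and 0.00192). In flight *Per2* differed by -0.31 in wild-type and -0.35 in knockout mice, and after scaling by -0.11 (limma, adjusted p = 0.313) and -0.19 (limma, adjusted p = 0.0797).

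*Per3* (ENSMUSG00000028957.12, chr4:151003652-151044665, minus strand), the third period gene, ranged from 0.55 to 1.11 TPM in GC-WT mice, 0.42 to 0.85 in FL-WT, 0.52 to 0.76 in GC-KO mice and 0.21 to 0.46 in FL-KO mice. The flight and ground knockouts did not overlap on TPM as deposited and did after scaling. Its log2 difference in the KO flight comparison was -0.30 ± 0.10 (limma, adjusted p = 0.0182), which is -0.01 relative to all genes, and after scaling -0.18 ± 0.06 (limma, adjusted p = 0.0367).

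*Per1* (ENSMUSG00000020893.17, chr11:69095217-69109960, plus strand), the period gene that glucocorticoids induce, varied more within groups than any other member. Its coefficient of variation was 51.9% in GC-WT mice, 84.7% in FL-WT, 57.2% in GC-KO mice and 77.7% in FL-KO mice, against 12 to 40.8% for *Arntl* and 13.2 to 34.2% for *Cry1*. The range was 1.26 to 10.04 TPM in GC-WT mice (median 5.71), 1.41 to 8.07 in FL-WT (median 2.23), 1.13 to 6.01 in GC-KO (median 3.13) and 0.54 to 4.1 in FL-KO mice (median 1.51). All groups overlapped. The log2 difference was -0.74 ± 0.37 in the WT flight comparison (limma, adjusted p = 0.123) and -0.64 ± 0.37 in the KO flight comparison (limma, adjusted p = 0.152). The first comparison met the calling rule when either of 2 libraries was left out, with relative differences of -0.76 when GC-WT mouse 10 was dropped and -0.77 when FL-WT mouse 3 was.

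The spread of *Per1* followed the number that each mouse carries in its label. Ground and flight mice bear the same numbers from 1 to 12 but are different animals, wild-type mice being 3, 5, 6, 7, 8 and 10 and knockout mice 1, 2, 4, 9, 11 and 12. GC-WT mice in order of number had 10.04, 6.35, 5.72, 5.69, 4.15 and 1.26 TPM. FL-WT mice had 8.07, 2.38, 2.21, 2.25, 1.56 and 1.41 TPM. In both wild-type groups mouse 3 was the highest and mouse 10 the lowest. GC-KO mice had 6.01, 5.65, 3.68, 2.59, 1.9 and 1.13 TPM. In FL-KO mice the order gave 4.1, 3.38, 2.25, 0.72, 0.78 and 0.54 TPM. The lowest number had the most *Per1* in all 4 groups and the highest number the least, with 2 steps out of order, between FL-WT mice 6 and 7 and FL-KO mice 9 and 11.

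This trend was looked for after the values were seen. With the number as a numeric term beside the group means, the slope of *Per1* was -0.17 ± 0.02 on the log2 scale per number (SE, limma, Benjamini-Hochberg adjusted p = 2.03e-06), and after scaling -0.21 ± 0.02 (limma, adjusted p = 2.36e-08), where *Per1* ranked 3 by p among the 12373 genes. On TPM as deposited 2 members fell with the number, *Per1* and *Nr1d2*, and 3 rose, *Arntl*, *Clock* and *Cry1*, at slopes of 0.02 to 0.03 where the median of all genes was 0.03, and after scaling the same 2 fell and 0 rose. By the same test 0.517% of all genes fell and 62.8% rose with the number on TPM as deposited, and 1.29% fell and 0.436% rose after scaling. Slopes within the groups were -0.30 in GC-WT mice, -0.25 in FL-WT, -0.14 in GC-KO mice and -0.16 in FL-KO mice. The slope of flight mice minus that of ground mice was -0.00 ± 0.04 (limma, adjusted p = 1), and that of knockout minus wild-type mice 0.13 ± 0.04 (limma, adjusted p = 0.221). The sources used here do not say what the number follows, and no cause was tested.

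**Figure D4:**
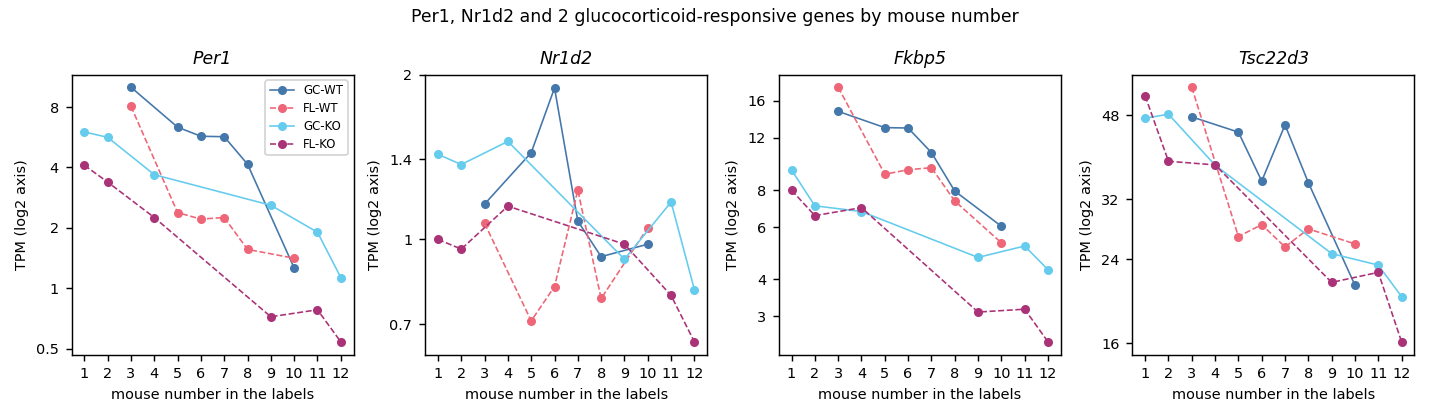
TPM (y axis, log2 scale) of *Per1*, *Nr1d2*, *Fkbp5* and *Tsc22d3* against the mouse number of the label (x axis), 1 line per group, solid for ground and dashed for flight. *Per1* runs from 10.04 to 1.26 TPM in GC-WT and from 4.1 to 0.54 TPM in FL-KO mice, and *Fkbp5* and *Tsc22d3* are at their lowest at the highest number in all groups but 1, the FL-WT mice of *Tsc22d3*.

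On TPM as deposited, the flight mouse had less *Per1* than the ground mouse of the same number for 5 of 6 wild-type and 6 of 6 knockout numbers. This was not particular to *Per1*. *Per2* and *Per3* gave the same counts, and *Arntl* and *Tef* gave 6 of 6 in both genotypes. *Clock* gave 3 of 6 in both, and *Cry1* and *Dbp* gave 3 and 5. The share over all genes was not counted, and the median gene was also lower in flight. With the number in the fit of TPM as deposited and no minimum fold change, the log2 differences given above stayed the same and the SE fell from 0.37 to 0.17. The number was put in the fit after *Per1* was seen to follow it, so a smaller SE was bound to result. The adjusted p-values of these fits are therefore a description only. *Per1* was then lower in the WT flight comparison (limma, adjusted p = 0.00243; 46.7% of all genes were lower) and in the KO flight comparison (limma, adjusted p = 0.00464; 61%). It was also lower in the ground genotype comparison, by -0.52 (limma, adjusted p = 0.0152; 47.7%), and in the flight genotype comparison, by -0.42 (limma, adjusted p = 0.0441; 51.2%).

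With the number in the scaled fit, the SE of *Per1* fell from 0.44 to 0.15. It was lower in the WT flight comparison by -0.45 (limma, adjusted p = 0.0382; 16% of all genes were lower) and in the KO flight comparison by -0.36 (limma, adjusted p = 0.0786; 21.7%), and the genotype comparisons did not pass (limma, adjusted p = 0.242 and 0.468). *Nr1d2* was higher in the ground genotype comparison by 0.17 (limma, adjusted p = 0.0408; 30.2% were higher) and in the flight genotype comparison by 0.22 (limma, adjusted p = 0.00817; 35.7%). These adjusted p-values too come from a fit whose number term was chosen after the trend was seen.

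The genes most like *Per1* in pattern over the scaled libraries were *Fkbp5* (0.492 SD units), *Tsc22d3* (0.573) and *Cxcr4* (0.704). *Fkbp5*, a co-chaperone of the glucocorticoid receptor, went from 14.75 to 6.04 TPM between the lowest and highest number of GC-WT mice and from 17.79 to 5.31 TPM in FL-WT mice. *Tsc22d3*, which encodes the glucocorticoid-induced leucine zipper, had a scaled slope of -0.16 ± 0.01 and *Fkbp5* one of -0.15 ± 0.01 (limma, adjusted p = 2.36e-08 and 5.84e-08). Of 5 glucocorticoid-responsive genes, 4 fell with the number on either scale, and *Sgk1* did not pass (limma, adjusted p = 0.957 after scaling). Of 7 tested immediate early genes, 3 fell after scaling, among them *Dusp1* at -0.15 and *Fos* at -0.13 per number (limma, adjusted p = 1.32e-05 and 0.00814).

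*Nr1d1* and *Nr1d2* encode the REV-ERB repressors of *Arntl*. *Nr1d2* (ENSMUSG00000021775.11, chr14:18204054-18239127, minus strand) ranged from 0.93 to 1.89 TPM in GC-WT mice (median 1.12), 0.71 to 1.23 in FL-WT (median 0.935), 0.81 to 1.51 in GC-KO (median 1.27) and 0.65 to 1.15 in FL-KO mice (median 0.97), with overlap throughout. None of its 4 comparisons passed without the number in the fit, the smallest limma adjusted p being 0.108, in the flight genotype comparison after scaling, with a difference of 0.22 ± 0.12. It was the other member that fell with the mouse number, by -0.05 ± 0.01 per number after scaling (limma, adjusted p = 0.00045) and by -0.03 ± 0.01 before it (limma, adjusted p = 0.0424). After scaling the slopes of the other 7 tested members lay between -0.02 and 0.00 and did not pass.

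*Nr1d1* (ENSMUSG00000020889.11, chr11:98767932-98775333, minus strand) was at 0.15 to 0.36 TPM in GC-WT mice, 0.07 to 0.19 in FL-WT, 0.03 to 0.13 in GC-KO mice and 0.02 to 0.06 in FL-KO mice. It was above 0 in all 24 libraries, and knockout mice lay below wild-type mice on the ground and in flight on TPM as deposited, though not after scaling. With no filter on low values it differed by -0.20 ± 0.03 in the ground genotype comparison (limma, adjusted p = 0.00259) and by -0.13 ± 0.03 in the flight genotype comparison (limma, adjusted p = 0.00678) on a log2(TPM + 1) scale that understates a change at this level. The ratio of mean TPM was 0.346 and 0.247 in these comparisons, at levels whose read support is unknown. After scaling the differences were -0.13 and -0.11 (limma, adjusted p = 0.00692 and 0.0115) and the ratios 0.476 and 0.347. In the WT flight comparison *Nr1d1* differed by -0.14 (limma, adjusted p = 0.0104), and after scaling by -0.08 (limma, adjusted p = 0.16). In the KO flight comparison it differed by -0.07 and after scaling by -0.06 (limma, adjusted p = 0.149 and 0.261).

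*Dbp* and *Tef* encode proline and acidic amino acid-rich bZIP factors, the classic output of the loop. *Dbp* (ENSMUSG00000059824.12, chr7:45705088-45710203, plus strand) was at 1.06 to 1.46 TPM in GC-WT mice (median 1.33), 0.55 to 1.63 in FL-WT (median 0.985), 0.73 to 1.03 in GC-KO (median 0.84) and 0.29 to 0.82 in FL-KO mice (median 0.615). On TPM as deposited, wild-type and knockout mice did not overlap on the ground and did in flight. Its genotype differences, -0.30 and -0.34 (limma, adjusted p = 0.0384 and 0.017), were -0.11 and -0.15 after scaling and did not pass (limma, adjusted p = 0.273 and 0.101). Inside libraries the log2 ratio of *Dbp* to *Arntl* averaged -1.24 ± 0.11 (SD, n = 6) in GC-WT mice, -0.78 ± 0.46 in FL-WT, -1.23 ± 0.25 in GC-KO mice and -0.91 ± 0.39 in FL-KO mice, and flight and ground mice overlapped. The ratio of *Per1* to *Arntl* averaged 0.64, 0.56, 0.58 and 0.47 with SDs of 1.07 to 1.37, so the groups could not be separated by it. The patterns most like that of *Dbp* were those of *Cyhr1* (0.803 SD units), *Srsf9* (0.804) and *Klc1* (0.81), farther off than the nearest genes of *Arntl* or *Per1*.

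*Tef* (ENSMUSG00000022389.15, chr15:81802421-81826863, plus strand) ranged from 1.36 to 2.18 TPM in GC-WT mice (median 1.79), 0.93 to 1.79 in FL-WT (median 1.17), 0.97 to 1.48 in GC-KO (median 1.3) and 0.49 to 0.84 in FL-KO mice (median 0.715). On TPM as deposited every FL-KO mouse was below every other mouse. After scaling FL-KO mice lay below every FL-WT mouse but overlapped GC-KO mice. The difference was -0.41 ± 0.10 in the KO flight comparison (limma, adjusted p = 0.00359) and -0.40 ± 0.10 in the flight genotype comparison (limma, adjusted p = 0.00227), and after scaling -0.22 and -0.20 (limma, adjusted p = 0.0271 and 0.024).

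On TPM as deposited, 0 of the 9 tested members were apart between FL-WT and GC-WT mice, where 4.19% of genes were apart and lower in flight. In the KO flight comparison 4 were apart (*Arntl*, *Per2*, *Per3* and *Tef*; 18.4% of genes), in the ground genotype comparison 3 (*Arntl*, *Cry1* and *Dbp*; 9.15%) and in the flight genotype comparison 3 (*Per2*, *Cry1* and *Tef*; 20.6%). After scaling this held for *Arntl* in the KO flight comparison (7.34% of genes) and for *Cry1* and *Tef* in the flight genotype comparison (17.8%), and for 0 members in the WT flight and ground genotype comparisons (3.17 and 3.96%).

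The 26 other genes of the pathway listed for comparison comprise further loop members, kinases, ubiquitin ligases and outputs. Of these, 17 were tested, and the 9 below the filter included *Npas2*, *Arntl2*, *Rora* and *Ciart*, each at 0.37 TPM or less in every library, while *Rorb* was listed at 0 in 23 of 24 libraries. By the rule with the fold change, limma called 0 of the 17 in each comparison. At an unadjusted p under 0.05 the counts were 9, 12, 14 and 14, each lower, in the WT flight comparison, the KO flight comparison, the ground genotype comparison and the flight genotype comparison, against 41.7, 52.2, 43.4 and 47.3% of all genes tested. After scaling and without the minimum fold, 3 were lower and 1 higher in the WT flight comparison (15.9 and 17.4% of all genes), 4 and 3 in the KO flight comparison (21.6 and 18.1%), 9 and 3 in the ground genotype comparison (27.8 and 29.8%) and 10 and 3 in the flight genotype comparison (31.2 and 35.2%).

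*Btrc*, a ubiquitin ligase subunit that targets phosphorylated PER proteins, was lower in flight in both genotypes. It was at 9.1 to 13.8 TPM in GC-WT and 3.52 to 6.86 in FL-WT mice, with no overlap, and at 6.63 to 12.01 in GC-KO mice and 3.21 to 5 in FL-KO mice, again with none. The log2 difference was -0.97 ± 0.14 (limma, adjusted p = 5.05e-05) and -0.93 ± 0.14 (limma, adjusted p = 3.33e-05), and after scaling -0.65 ± 0.08 and -0.57 ± 0.08 (limma, adjusted p = 1.88e-05 and 3.25e-05), short of a fold change of 2 on this scale. *Timeless*, with a role in replication forks, differed by -0.61 and -0.65 (limma, adjusted p = 0.00629 and 0.00266), and *Wee1*, a mitotic kinase under clock control, by -0.48 and -0.63 (limma, adjusted p = 0.0194 and 0.00221). After scaling *Timeless* was at -0.34 and -0.39, and *Wee1* at -0.19 and -0.32.

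Of the 3 listed casein kinases, which phosphorylate PER proteins, *Csnk1d* and *Csnk1e* were lower in knockout mice and *Csnk1a1* was not. *Csnk1d* was at 11.44 to 15.82 TPM in GC-WT and 6.01 to 11.42 in GC-KO mice, a log2 difference of -0.72 ± 0.16 (limma, adjusted p = 0.00112), and *Csnk1e* differed by -0.70 ± 0.17 there and by -0.87 ± 0.17 in flight (limma, adjusted p = 0.0021 and 0.000148). *Csnk1a1* differed by -0.16 and -0.19 on TPM as deposited (limma, adjusted p = 0.385 and 0.304), and after scaling it was higher in knockout mice by 0.18 and 0.24 (limma, adjusted p = 0.0111 and 0.00111). *Nono*, an RNA-binding partner of PER proteins, differed by -0.64 and -0.77 (limma, adjusted p = 0.00148 and 0.000113). *Bhlhe40*, an E-box repressor, differed by -0.79 ± 0.15 in flight (limma, adjusted p = 0.000155). After scaling *Csnk1e* was at -0.40 and -0.52 and *Bhlhe40* at -0.53 in flight. In the interaction of flight and genotype limma called 0 of the 9 members and 0 of the 17 other genes, with 0 of either at an unadjusted p under 0.05 on TPM as deposited, where 0.0162% of all genes were called.

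**Figure D5:**
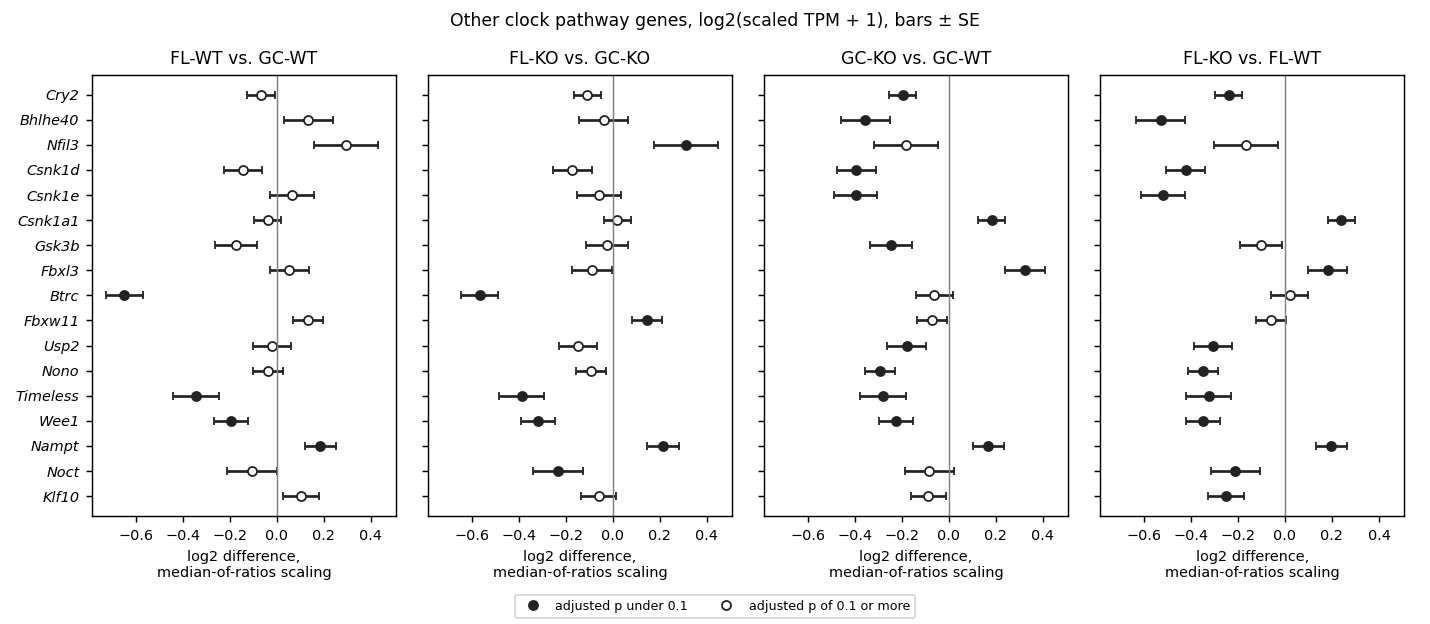
Difference in log2(scaled TPM + 1) (x axis, median-of-ratios scaling) of the 17 other tested clock pathway genes in the 4 comparisons, with bars of ± 1 SE of the limma fit; filled points have an adjusted p under 0.1 and open points 0.1 or more. *Btrc* lies at -0.65 and -0.57 in the flight panels and near 0 in the genotype panels, while *Csnk1d*, *Csnk1e*, *Nono* and *Bhlhe40* lie left of 0 in the genotype panels.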

How the data were processed

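Bone marrow RNA of 24 mice was analysed, 6 per group, with groups and mouse numbers read from the sample labels. According to the submitters' processing notes and the study's methods, the authors mapped reads of directional MGIEasy libraries to mm10 with STAR 2.6.1 and estimated expression with RSEM 1.3.1, and the deposited table holds TPM, which summed to 999999.5 to 1000001.1 per library. Read counts were not used here and TPM keeps no depth, so depth and counting error are unknown. Coordinates and symbols came from GENCODE M21 on GRCm38, where 54723 of 54752 IDs had a symbol.

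Genes with a TPM above 1 in at least 1 library (12373) were put on a log2(TPM + 1) scale and fitted by limma 3.58.1 (R 4.3.3), a mean per group over all 24 libraries, and Benjamini-Hochberg adjustment over all genes tested. A call needed an adjusted p under 0.1 plus a fold change of 2 or more. The rest used pandas 2.3.3, numpy 2.4.6 and matplotlib 3.10.9 under Python 3.11.15, and the fit was tested on simulated data. The text names all members, up to 3 other pathway genes per comparison with the smallest adjusted p, Nfe2l2, up to 2 glucocorticoid-responsive and 2 immediate early genes beside Per1, and the 3 genes nearest in pattern to Arntl, Dbp and Per1. *Sgk1*, *Csnk1a1* and the pathway genes below the filter were named after their values were seen. The members and lists were chosen with earlier results of these data known, so no list was tested and no p was adjusted over a list. Alternatives covered the pseudocount, filter, scaling between libraries, small RNAs, GC content and length, limma options, thresholds, a block for mouse number, and leaving out each library. The mouse number as a numeric term, and the block without a minimum fold, were added after the data were seen. Motifs were searched on both strands of RefSeq promoter windows on GRCm38.p6.

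Whether mouse numbers pair ground and flight mice was checked by the correlation of deviations from the group means. It was above 0.1 in 7 of 12 pairs. Pairing was to be taken only where all pairs passed, so the numbers stayed out of the tests, although *Per1* and some other genes followed them. P-values set a difference of group means, or a slope with the number, against the spread between these mice.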

Additional observations from a re-analysis of the deposited data

Results flagged for a closer look

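Among 40 sets of 6 mice, 10 genes in 4 groups, 2 mice stood apart by Dixon's criterion, where chance alone flags about 1 set in 20. *Per1* was at 8.07 TPM in FL-WT mouse 3, the lowest number of its group, against 2.38 TPM in the next mouse, a gap of 0.854 of the group's range. *Per2* was at 1.11 TPM in GC-KO mouse 11 against 0.88 TPM in the next mouse, a gap of 0.742 of the range. Both flags are on TPM as deposited and were not checked after scaling. GC-KO mouse 11 had the largest divisor of the median-of-ratios scaling in its group, at 1.303, so its typical gene was high too.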

How the results depend on the processing

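No member was called with any scaling, filter, trend, threshold of 0.05 or fit of the compared groups alone while the fold change of 2 was kept. On log2(TPM + 1) of TPM as deposited, members averaging under 1 TPM in the group subtracted could not be called lower. With a pseudocount of 0.1, 2 members (*Cry1* and *Per2*) were called in the flight genotype comparison. The share of all genes called is not given for this pseudocount, for fits without 1 library or without the 5 small RNAs. These counts are thus not read as results about the members. Leaving out 1 library gave 0 to 1 members and 0 to 1 other pathway genes in the WT flight comparison, the member being *Per1* without GC-WT mouse 10 or FL-WT mouse 3 and the other pathway gene appearing without GC-WT mouse 5 or FL-WT mouse 7. Other pathway genes numbered 1, 1 and 3 in the WT flight comparison, the KO flight comparison and the flight genotype comparison with a pseudocount of 0.1, and 1 in the WT flight comparison without the 5 small RNAs. Without the minimum fold, members numbered 4, 5, 5 and 6 and other pathway genes 9, 12, 14 and 14 in the WT flight comparison, the KO flight comparison, the ground genotype comparison and the flight genotype comparison. With scaling in addition these were 1, 5, 3 and 4 and 4, 7, 12 and 13, and with the mouse number as a numeric term as well, 2, 6, 4 and 5 and 5, 7, 12 and 13. With the mouse number as a numeric term on TPM as deposited and no minimum fold they were 5, 8, 6 and 7 and 10, 13, 14 and 14. By this last fit 46.7, 61, 47.7 and 51.2% of all genes were lower. With scaling and the number, 16 and 21.7% were lower in the flight comparisons and 30.2 and 35.7% higher in the genotype comparisons. The median relative difference of the members moved to -0.34 in the KO flight comparison and -0.33 in the flight genotype comparison with a pseudocount of 0.1. Without a filter it was -0.24, -0.29 and -0.36 in the KO flight comparison, the ground genotype comparison and the flight genotype comparison. There the median of all genes, which is subtracted, changed as well, because genes near 0 TPM entered it. In the ground genotype comparison *Nr1d1* then differed by -0.20 and by -0.19 relative to all genes, so little was subtracted. These values are therefore not a move of the members alone. With the trend of GC content and length removed it changed sign, to 0.12 and 0.23, in the ground genotype comparison and the flight genotype comparison. The causes were not tested.

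The slope of *Per1* with mouse number kept its direction and its adjusted p under 0.1 in 10 alternatives, from -0.27 in WT mice alone to -0.15 in Nrf2-KO mice alone, and in 24 fits that each left out a library. With the mouse number as a replicate block, 0 members were called in the WT flight comparison, the KO flight comparison and the interaction. This count could not rise, because the block leaves the log2 differences as they are and no member reached a fold change of 2. With the block and no minimum fold, members numbered 5 and 6 and other pathway genes 10 and 14 in the WT flight comparison and the KO flight comparison, with 0 of either in the interaction. *Per1* was the member added to those of the fit without the block, at limma adjusted p of 0.00124 and 0.00199. The share of all genes was not set beside the counts with the block. Same-numbered mice had correlations of -0.03 to 0.27, and 3 of 12 pairs correlated best with their own number. No paired analysis was possible for the genotype comparisons because the genotypes share no mouse numbers. Depth is unknown, and members near or below 1 TPM rest on an unknown number of reads.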
